A study of Mus musculus with 6 samples.

Results

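The 8 genes described here build the membrane of the red cell or drive the formation of red cells. Sptb, Epb42, Slc4a1, Rhag and Ank1 are the 5 membrane genes, and Klf1, Gata1 and Epor are the 3 erythroid factors. They were taken by name from an array that gave a level for 22180 genes through probe sets with a single gene symbol, and all 8 were among these. Ank1 had 2 such probe sets, and the one with the higher mean stood for it. No filter on low values was applied, so each of the 8 entered the comparison.

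The study measured RNA on 6 arrays, each from cells sorted out of the marrow of a leukemic mouse model, 3 from chronic myeloid leukemia (CML) and 3 from acute myeloid leukemia (AML). All 6 samples carry the Col2.3 GFP genotype, in which a fragment of a type I collagen promoter drives green fluorescent protein in bone-forming cells, and the labels call the cells osteoblastic. The sources used here give neither the way the leukemias were induced nor the age of the mice. The groups follow the titles, although every source name reads CML, and no label states whether different mice gave the samples. The p-values therefore reflect only how these 6 samples vary, and that variation may be technical.

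In a maturing red cell the spectrin network lies under the membrane. Ankyrin ties beta spectrin to the anion exchanger that Slc4a1 encodes. The protein encoded by Epb42 binds both ankyrin and the exchanger, and the Rh-associated glycoprotein encoded by Rhag belongs to the same membrane complex. The zinc finger factor GATA1 and the factor KLF1 switch on these and other erythroid genes, and the erythropoietin receptor, encoded by Epor, keeps erythroid progenitors alive through JAK2 and STAT5. GATA1 also acts in megakaryocytes, mast cells and eosinophils.

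The upstream sequences of the genes are shown because GATA1 is known to bind DNA of the GATA type and KLF1 of the CACCC type. Windows of 250 bases before the RefSeq start (build GRCm38.p6) were held for 6 of the 8 genes, and Slc4a1 and Ank1 were not matched. They were searched on both strands for AGATAA and for CCNCNCCC, where N is any base. The 4 windows with a match follow, 5′ to 3′ on the gene's strand, with matched letters in capitals.
Gata1, chrX:7967911-7968160, minus strand: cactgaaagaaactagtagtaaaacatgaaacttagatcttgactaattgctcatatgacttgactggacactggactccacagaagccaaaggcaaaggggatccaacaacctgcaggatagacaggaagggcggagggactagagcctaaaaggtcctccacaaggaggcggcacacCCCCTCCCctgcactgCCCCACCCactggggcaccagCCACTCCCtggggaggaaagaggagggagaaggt
Epor, chr9:21963577-21963826, minus strand: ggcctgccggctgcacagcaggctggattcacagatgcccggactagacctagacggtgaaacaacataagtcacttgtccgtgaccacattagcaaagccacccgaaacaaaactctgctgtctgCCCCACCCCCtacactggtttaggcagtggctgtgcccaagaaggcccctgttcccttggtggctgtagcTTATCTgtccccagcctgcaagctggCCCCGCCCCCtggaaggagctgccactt
Sptb, chr12:76710548-76710797, minus strand: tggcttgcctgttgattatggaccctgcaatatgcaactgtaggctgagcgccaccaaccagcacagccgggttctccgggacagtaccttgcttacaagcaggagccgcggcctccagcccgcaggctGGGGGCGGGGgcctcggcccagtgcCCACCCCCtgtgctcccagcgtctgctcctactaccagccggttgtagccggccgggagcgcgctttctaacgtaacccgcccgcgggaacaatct
Epb42, chr2:121036878-121037127, minus strand: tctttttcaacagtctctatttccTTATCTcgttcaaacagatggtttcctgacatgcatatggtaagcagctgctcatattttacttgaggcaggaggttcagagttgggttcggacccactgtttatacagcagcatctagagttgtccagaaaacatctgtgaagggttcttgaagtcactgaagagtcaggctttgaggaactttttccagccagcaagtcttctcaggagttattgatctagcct

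AGATAA was found in 2 of the 6 windows, those of Epb42 and Epor, both on the reverse strand as TTATCT. Of all 32851 RefSeq windows of this length, 9.99% held it. CCNCNCCC was found in 3 of the 6 windows, those of Gata1, Epor and Sptb, against 45.9% of all windows. In Gata1 the 3 matches began 71, 55 and 34 bases before the start and did not overlap. In Epor the 4 matches formed 2 overlapping pairs, and in Sptb 2 of the 3 matches overlapped. The windows of Rhag and Klf1 held neither word. The words do not cover every form of GATA-type or CACCC-type DNA. Both of these windows held TTATCA, which reads TGATAA on the other strand. The Klf1 window also held CACCC, and the Rhag window GGGTG, which reads CACCC on the other strand. These are matches of letters in these windows only, and no binding was measured.

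All 8 genes were lower in AML by value, and none passed the test. Their log2 changes, AML minus CML, ran from -2.63 for Slc4a1 to -1.08 for Klf1, with a median of -2.01 against -0.11 over all genes. Each was at least 2-fold lower by value, which held for 1.98% of all genes. None of the 8 reached a Benjamini-Hochberg adjusted p of 0.05 in limma, a linear model fitted across all genes. Of all genes 1.91% did, and 0.0812% did as lower in AML. The groups overlapped for all 8, while 31.3% of all genes had groups free of overlap. In bulk RNA, fewer cells of a type and less RNA per cell cannot be told apart.

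**Figure D1:**
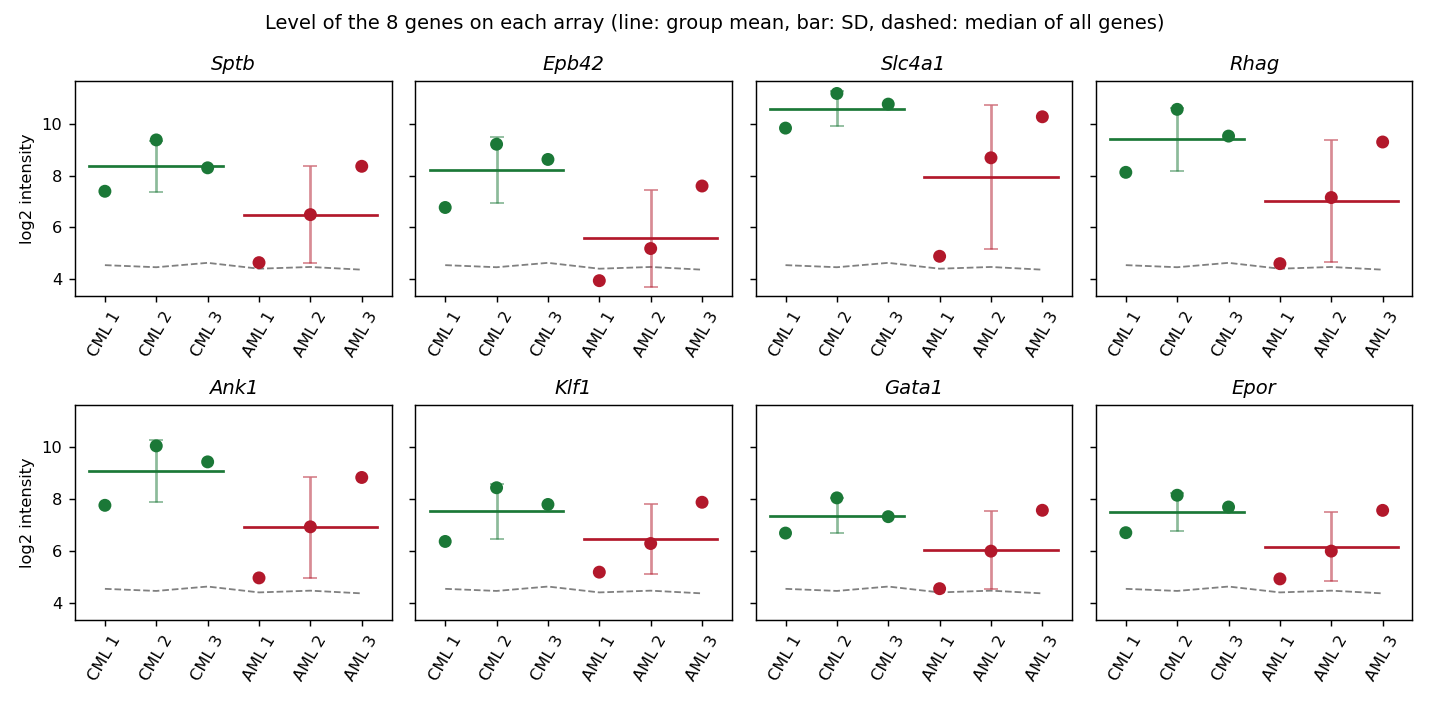
Log2 intensity (vertical axis) of each of the 8 genes on the 3 CML arrays (green) and the 3 AML arrays (red), with group means (lines), SD (bars) and the median of all genes on each array (dashed). AML 1 is the lowest array and CML 2 the highest in every panel, and AML 3 lies among the CML arrays.

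The membrane genes spanned the widest range. Slc4a1 (probe set 17270162), the chloride and bicarbonate exchanger of the red cell, had log2 intensities of 9.83, 11.16 and 10.75 in CML (arrays 1, 2 and 3, an order kept throughout) and of 4.89, 8.68 and 10.26 in AML. AML 3 lay between CML 1 and CML 3, while AML 1 lay near the median of all genes on its array, 4.41. The group means were 10.58 ± 0.68 in CML and 7.95 ± 2.76 in AML (SD, n = 3 each), a change of -2.63 with a 95% interval from -5.69 to 0.43 (limma adjusted p = 0.276). Slc4a1 thus differed by 41.3-fold between AML 1 and AML 3 and by 6.20-fold between the group means.

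Rhag (probe set 17337706), whose product is a membrane channel of the Rh complex, stood at 8.12, 10.55 and 9.52 in CML and at 4.61, 7.15 and 9.29 in AML. AML 3 was above CML 1 and close to CML 3. The means were 9.40 ± 1.22 and 7.02 ± 2.34 (SD, n = 3 each), a change of -2.38 with an interval from -5.22 to 0.47 (limma adjusted p = 0.286).

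Ank1 (probe set 17500005), the erythroid ankyrin, stood at 7.77, 10.05 and 9.44 in CML and at 4.97, 6.94 and 8.84 in AML. Its other probe set, 17508125, gave 7.48, 9.40 and 9.14 in CML and 4.71, 6.47 and 7.68 in AML. Both probe sets put AML 1 and AML 2 below every CML array and AML 3 above CML 1. The change was -2.17 with an interval from -4.62 to 0.28 (limma adjusted p = 0.267), and -2.39 at the other probe set.

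Epb42 (probe set 17390371), the anchor between ankyrin and the exchanger, stood at 6.77, 9.21 and 8.62 in CML and at 3.95, 5.19 and 7.60 in AML. It was the member with the lowest p, at an unadjusted 0.0381 in limma, and the 1 of 8 under 0.05, against 21.5% of all genes. Its interval, from -5.04 to -0.19, was the only one of the 8 that left out 0. The change was -2.62, from 8.20 ± 1.27 to 5.58 ± 1.85 (SD, n = 3 each), and did not pass (limma adjusted p = 0.210). On AML 1 it was 0.46 below the median of all genes.

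Sptb (probe set 17282025), the beta spectrin of red cells, stood at 7.39, 9.37 and 8.30 in CML and at 4.65, 6.49 and 8.36 in AML. AML 3 was 0.0016 above the CML mean of 8.35, while AML 1 and AML 2 were below every CML array. The change was -1.85 with an interval from -4.12 to 0.42 (limma adjusted p = 0.292).

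The 3 erythroid factors spanned a narrower range, and as for the membrane genes AML 1 was lowest and CML 2 highest. Klf1 (probe set 17503254) stood at 6.37, 8.44 and 7.80 in CML and at 5.19, 6.30 and 7.88 in AML. AML 3 was above CML 1 and CML 3, and AML 2 lay just below CML 1. The change was -1.08 with an interval from -2.94 to 0.78 (limma adjusted p = 0.412), the smallest of the 8.

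Gata1 (probe set 17539966) stood at 6.70, 8.05 and 7.33 in CML and at 4.56, 6.0 and 7.57 in AML. As for Klf1, AML 3 was above CML 1 and CML 3. The means were 7.36 ± 0.68 and 6.04 ± 1.51 (SD, n = 3 each; limma adjusted p = 0.329), a change of -1.31.

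Epor (probe set 17524847) stood at 6.71, 8.15 and 7.70 in CML and at 4.93, 6.0 and 7.57 in AML. AML 3 was just below CML 3. The means were 7.52 ± 0.74 and 6.17 ± 1.33 (SD, n = 3 each; limma adjusted p = 0.292), a change of -1.35.

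The 8 genes ranked the 6 arrays in nearly the same way. AML 1 was the lowest array for 8 of 8 genes, AML 2 the second lowest for 8, CML 1 next for 8 and CML 2 the highest for 8. CML 3 and AML 3 shared the places between, with AML 3 above CML 3 for 3 genes, Sptb, Klf1 and Gata1. A single profile common to the 8 genes held 92.4% of their sum of squares over the arrays. The difference between the leukemias held 39.2% of it, the spread within AML 47.8% and the spread within CML 13.0%. The spread among the 3 AML arrays thus held a larger share than the difference between the groups. These are raw sums of squares on unequal degrees of freedom, so their order does not rank variances. The residual SD of the 8 genes was 1.07 to 2.01 on the log2 scale, against a median of 0.25 for all genes, and lay between the 98.3 and 99.9 percentiles of all genes.

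The size of the difference rested on which AML array was counted. Without AML 1 the median change of the 8 genes was -1.02, with changes from -1.80 to -0.45, and limma gave 0 of the 8 an unadjusted p under 0.05. Without AML 3 it was -2.96, with changes from -3.79 to -1.79, and all 8 were at an unadjusted p under 0.05 (limma), the lowest being 0.00431 for Epb42. None passed after adjustment there either, with limma adjusted p from 0.114 to 0.288. Without CML 2 the median was -1.52 and without CML 1 it was -2.58. Every one of the 8 stayed lower in AML by value in each of these fits.

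**Figure D2:**
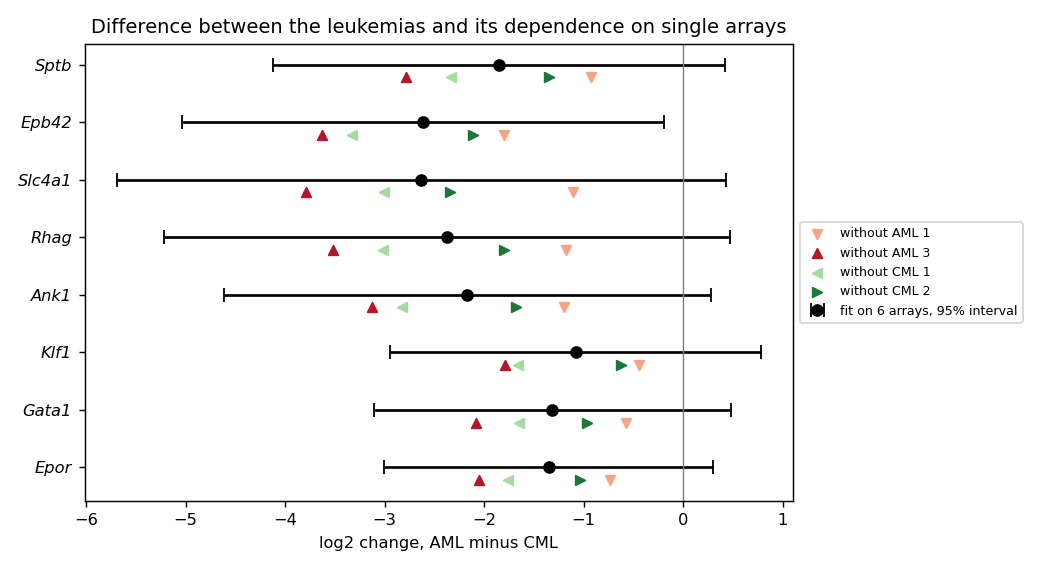
Log2 change, AML minus CML (horizontal axis), of each gene in the fit on all 6 arrays (black points, bars are 95% intervals) and without AML 1, AML 3, CML 1 or CML 2 (triangles). All values lie below 0, and they move toward 0 without AML 1 and away from it without AML 3.

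The difference between the leukemias was not of the same size in both sets. The mean of the 5 membrane genes differed by -2.33 and that of the 3 factors by -1.25. The level of the factors relative to the membrane genes, each centred on its mean over the 6 arrays, was -0.27, -0.74 and -0.61 in CML and 1.39, 0.32 and -0.08 in AML. It was higher on each AML array than on any CML array, by 1.08 between the group means. For Klf1 alone it was -0.62 ± 0.05 in CML and 0.62 ± 0.81 in AML (SD, n = 3 each), with no overlap, spanning -0.67 to -0.57 in CML and -0.03 to 1.54 in AML. Gata1 and Epor overlapped, Gata1 by CML 1 at -0.02 against AML 3 at -0.04, and Epor by CML 1 at -0.15 against AML 3 at -0.19. Groups that do not overlap were found for 31.3% of all genes, and this contrast was chosen after the values were seen, so it carries no test.

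AML 1, where all 8 genes were within 0.78 of the median of all genes, weighed most in this contrast. Without it the difference was 0.66, and the groups still did not overlap. The part of dim signal in the contrast was not tested. On AML 3, where the membrane genes were 0.91 above their mean over the arrays and the factors 0.83 above theirs, both sets stood at similar values. CML 3, with a membrane value of 1.37, had a factor value of 0.76. Within the membrane genes, Sptb relative to the other 4 was also higher on the AML arrays, from 0.02 to 0.70, than on the CML arrays, from -0.62 to -0.06, and the remaining 4 overlapped.

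**Figure D3:**
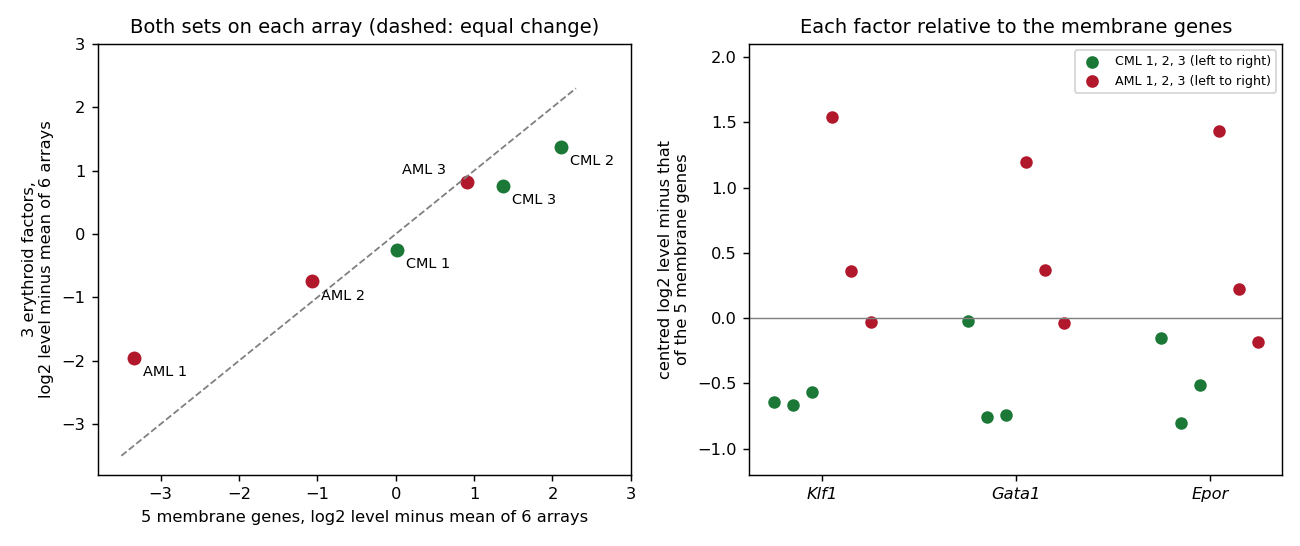
Left, mean log2 level of the 3 erythroid factors (vertical axis) against that of the 5 membrane genes (horizontal axis) on each array, both minus their mean over 6 arrays; the dashed line marks equal change. Right, each factor's centred log2 level minus that of the 5 membrane genes, where the Klf1 values of AML (red, -0.03 to 1.54) lie above those of CML (green, -0.67 to -0.57).

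Other membrane genes of the red cell followed the same arrays. Of 22 measured, 0 passed the test in either direction (limma), 3 had an unadjusted p under 0.05, against 21.5% of all genes, so that this count does not stand above the background. Those 3 were Dmtn, lower in AML, and Cd47 and Tmod3, both higher in AML, Tmod3 by 0.69. The groups were free of overlap for 2 of the 22, Cd47 and Tmod3, against 31.3% of all genes. By value 19 were lower in AML and 12 were at least 2-fold lower, against 1.98% of all genes, with a median change of -1.13. AML 1 was lowest for 14 of the 22 and CML 2 highest for 16. Dmtn, which encodes the actin-bundling protein dematin, had the lowest p, at a change of -1.55 ± 0.48 (SE; limma adjusted p = 0.152). Cd47, a ligand found on most cell types that restrains phagocytes, was next and ran the other way, at 0.62 ± 0.24 (SE; limma adjusted p = 0.209). Kel, which carries a blood group antigen, differed by -2.60 and Rhd, the partner of Rhag, by -2.12, values close to those of the members. Stom and Add1, which other cells also use, stood at -0.12 and -0.08. Xk at -0.0017, Cd59a at -0.36 and Slc14a1 at -0.82 were also short of a 2-fold difference. Apart from Dmtn and Cd47, the genes named here were picked after their values were seen.

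Genes of heme synthesis and of red cell maturation, both fixed as lists, were also mostly lower in AML by value. Of 11 heme and iron genes, 0 passed in limma, 3 had an unadjusted p under 0.05, against 21.5% of all genes, 10 were lower by value and the median change was -1.25. Ppox, an enzyme late in heme synthesis, differed by -2.32 ± 0.64 (SE; limma adjusted p = 0.123), with no overlap between the groups, and Slc25a37, the mitochondrial iron importer of erythroid cells, by -1.66 ± 0.59 (SE; limma adjusted p = 0.187). Of 15 genes for red cell enzymes and maturation, 0 passed in limma, 6 had an unadjusted p under 0.05, against the same 21.5%, 14 were lower by value and the median was -1.77. Ypel4 differed by -2.91 ± 0.79 and Trim58, a ubiquitin ligase of late erythroblasts, by -1.50 ± 0.52 (SE; limma adjusted p = 0.121 and 0.181). Adult globin genes, Ahsp and Alas2 were not analysed here.

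Other transcription factors of the erythroid programme split. Of 20 measured, 1 passed, against 1.91% of all genes. This was Spi1, higher in AML by 1.96 ± 0.33 (SE; limma adjusted p = 0.0453). Spi1 encodes PU.1, a myeloid factor known to antagonise GATA1. It stood at 6.41, 6.66 and 7.25 in CML and at 9.07, 9.02 and 8.12 in AML, without overlap. AML 3, the AML array highest in Gata1, was the AML array lowest in Spi1. In CML the order was not opposite in this way, as CML 1 was the lowest CML array for both genes. By value 13 of the 20 were lower in AML, with a median change of -0.48. The partners of GATA1 that were picked after their values were seen differed in size. Zfpm1, which encodes the cofactor FOG, differed by -1.72, Tal1 by -0.95, Gfi1b by -1.09, Lmo2 by 0.31 and Ldb1 by -0.17. None of these 5 passed (limma adjusted p from 0.213 to 0.706).

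The list of erythropoietin receptor signalling also ran both ways. Of 15 genes, 1 passed, against 1.91% of all genes, and this was Kit, the receptor of stem cell factor. It stood at 5.35, 4.71 and 5.15 in CML and at 6.81, 7.08 and 6.73 in AML, without overlap, and was higher in AML by 1.80 ± 0.21 (SE; limma adjusted p = 0.0232). The median change was -0.55, 10 genes were lower by value and 5 higher, 9 of 15 had an unadjusted p under 0.05 (limma), against 21.5% of all genes, and the groups did not overlap for 7 of 15, against 31.3%. The signal transducers downstream of the receptor were higher in AML by value, Jak2 by 1.14, Stat5a by 0.75 and Stat5b by 1.15, each without overlap. Genes known as targets of STAT5 were lower by value. Cish stood at 8.92, 10.99 and 10.02 in CML and at 5.94, 6.57 and 8.55 in AML, a change of -2.96 without overlap. Socs2 differed by -2.37, also without overlap, but stood at 8.81 on CML 1 against 5.66 and 5.84 on CML 2 and CML 3. Bcl2l1 differed by -1.52 and Pim1 by -1.50, both with groups that overlapped. None of these 7 genes passed (limma adjusted p from 0.0679 to 0.186), and they were picked after their values were seen. The ligand gene Epo lay between 4.34 and 4.98 on all 6 arrays, near the medians of all genes of 4.38 to 4.64.

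**Figure D4:**
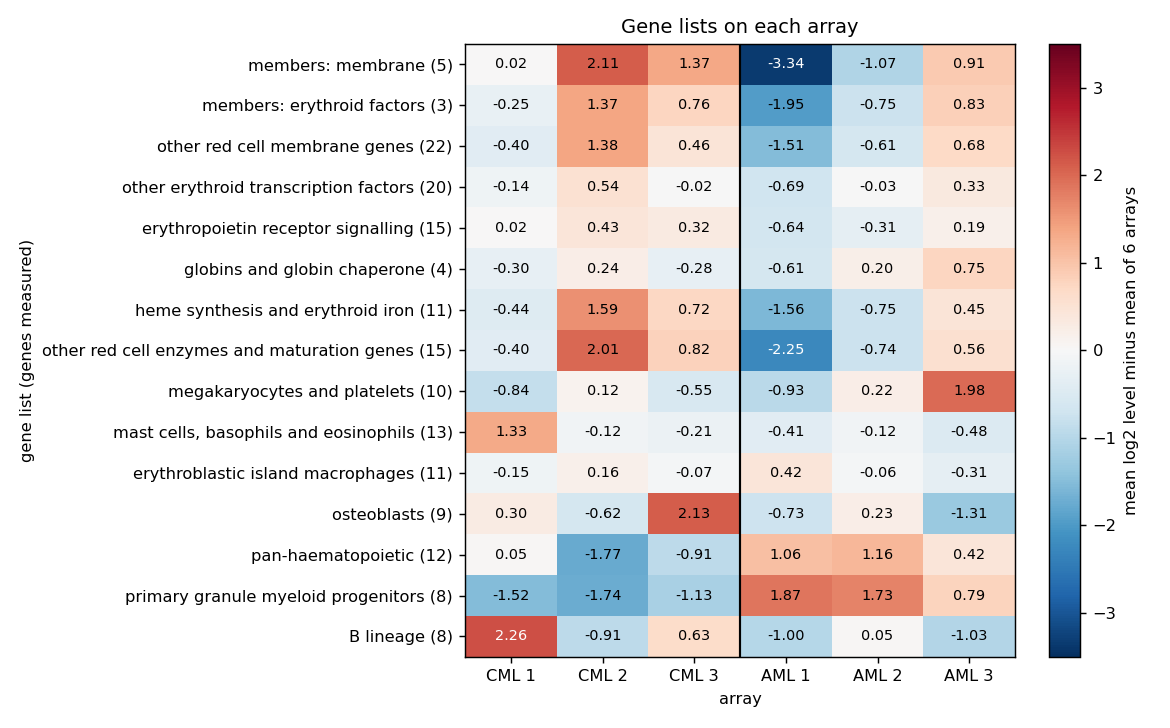
Mean log2 level minus the mean of the 6 arrays (colour and printed number) for each gene list (rows, genes measured in brackets) on each array (columns, CML left of the line). The membrane genes run from -3.34 on AML 1 to 2.11 on CML 2, and the lists of heme, membrane and maturation genes are likewise lowest on AML 1 and highest on CML 2.

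Markers of other cells were read beside these results, and their part in them was not tested. Of 11 osteoblast genes 9 were measured, none at 0, and all 9 were lower in AML by value. In limma 0 passed the test, against 1.91% of all genes, and 0 had an unadjusted p under 0.05, against 21.5%. Their summed intensity was 2665 to 12551 in CML and 1284 to 4701 in AML, highest on CML 3 and lowest on AML 3. Among them Col1a1, whose promoter type drives the reporter, was between 7.26 and 11.95 on the log2 scale on every array, while Bglap was at 7.04 on CML 3 and no higher than 4.84 elsewhere. The arrays lowest in osteoblast genes and in erythroid genes were thus different, AML 3 and AML 1. Col1a2 and Phex, with the lowest p, differed by -1.10 and -1.51 (limma adjusted p = 0.292 and 0.274).

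The pan-haematopoietic and primary granule lists ran against the erythroid genes. All 12 measured pan-haematopoietic genes were higher in AML by value. Of these 2 passed, Vav1 and Ptpn6 (limma adjusted p = 0.0437 and 0.0298), against 1.91% of all genes. An unadjusted p under 0.05 (limma) was found for 10 of 12, against 21.5% of all genes, and groups free of overlap for 7 of 12, against 31.3%. The summed intensities were 1285 to 4638 in CML and 6369 to 10588 in AML. Of 8 primary granule genes 6 passed as higher in AML, among them Elane, Mpo, Prtn3 and Fcnb, with log2 changes of 3.85, 2.65, 3.14 and 3.65. All 8 had an unadjusted p under 0.05 (limma) and groups free of overlap. Their sums were 759 to 1120 in CML and 5000 to 11504 in AML. Within each leukemia the array highest in the 8 erythroid genes, CML 2 and AML 3, was the lowest of its group in both of these lists by sum.

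Lineages that share GATA1 with red cells were read in the same way, and so were island macrophages and the B lineage. The counts below stand against 1.91% of all genes that passed and 21.5% at an unadjusted p under 0.05 (limma). The mean centred log2 level of the megakaryocyte and platelet genes was -0.84, 0.12 and -0.55 in CML and -0.93, 0.22 and 1.98 in AML. Within each leukemia this is the order of arrays seen for the membrane genes, with AML 1 the lowest of the 6, but AML 3 was the highest of the 6 in place of CML 2. Of 10 megakaryocyte and platelet genes 0 passed and 0 had an unadjusted p under 0.05 (limma), 8 were higher in AML by value, and the sums were 357 to 741 in CML and 329 to 3863 in AML, highest on AML 3. Ppbp and Clec1b, with the lowest p, stood at 2.41 and 0.99 (limma adjusted p = 0.267 and 0.301). Of 13 genes of mast cells, basophils and eosinophils 12 were lower in AML by value, limma passed 0, with 0 at an unadjusted p under 0.05, and the sums were 447 to 4174 in CML and 350 to 472 in AML, with CML 1 far above the rest. Hdc and Prss34, with the lowest p, differed by -1.58 and -1.71 (limma adjusted p = 0.316 and 0.332). Of 11 genes of macrophages of erythroblastic islands, which nurse red cell precursors, limma passed 0, with 1 at an unadjusted p under 0.05. Their sums were 372 to 836 in CML and 339 to 652 in AML, and Adgre1 and C1qa, with the lowest p, stood at 1.84 and -0.36 (limma adjusted p = 0.233 and 0.225). B lineage genes, 8 measured, were all lower in AML by value with 0 past limma's test and 0 at an unadjusted p under 0.05, and their sum was highest on CML 1, at 3206 against 173 to 626 on the other arrays. Cd79a and Pax5, with the lowest p, differed by -2.68 and -1.19 (limma adjusted p = 0.233 and 0.312).

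The genes whose pattern lay closest to the members were searched over all genes other than the 8, passing over predicted genes, small RNAs and olfactory and vomeronasal receptors, by the root mean square difference of centred log2 levels over the 6 arrays. Closest to the mean of the 5 membrane genes were Tspan33, a tetraspanin of erythroid cells, at 0.12, Ermap at 0.16, Cpox, an enzyme of heme synthesis, at 0.23, Tspo2 at 0.28 and Ces2g at 0.34. The median of all other genes was 1.78. Measured against the mean of the other 4, the members themselves lay between 0.21 for Rhag and 0.66 for Slc4a1. Closest to the mean of the 3 factors were Cdc25b, a phosphatase of the cell cycle, at 0.16, Prdx2, an abundant red cell peroxidase, at 0.18, Kcnn4, a potassium channel of the red cell membrane, at 0.19, and Abcg4 and Atp1b2, both at 0.22, against a median of 1.13. Ermap, Cpox, Tspo2, Prdx2 and Kcnn4 were on the fixed erythroid lists, and the other 5 were on none.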

How the data were processed

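Each sample's RNA was read on 1 array after terminal labelling, per the labels' protocols. limma and lumi are named, with no steps or versions, in the submitters' processing notes. The deposited values are intensities on a linear scale, judged from their range of 2.71 to 8583, and the sources used here do not say how the authors corrected background or normalized. The medians of the 6 arrays differ by group, at 18.6 to 20.4 in CML and 17.2 to 17.8 in AML. The upper quartiles on the log2 scale went the other way, at 5.56 to 5.59 in CML and 5.64 to 5.75 in AML. No detection p-value was used, and the number of arrays limits the precision.

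The platform annotation pairs 23521 of the 39721 probe sets with a single symbol, 1814 with several and 14386 with none, and those with 1 symbol gave 22180 genes, each by its probe set of highest mean. A RefSeq gene table (GRCm38.p6) held 23328 of these probe sets and changed 0 symbols. Log2 values were fitted across all genes with limma 3.58.1 in R 4.3.3 (lmFit and eBayes, two-sided, AML minus CML, Benjamini-Hochberg adjustment). Standard errors and 95% intervals are limma's moderated ones. The steps were tested on simulated data. Figures used matplotlib 3.10.9.

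The 8 genes, the lists and the tests were chosen with earlier results of these data known. Each list names at most 4 genes that passed, or the 2 with the lowest p, and the text says where others were named after their values were seen. The alternatives were 3 other scalings, a filter, other choices of probe set, a floor, moderation and weight options, each array left out in turn, and a replicate block.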

Additional observations from a re-analysis of the deposited data

How the results depend on the processing

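All 8 genes stayed lower in AML by value, and 0 of 8 passed an adjusted p of 0.05, in the fit as reported and in each of the 16 alternatives. The filter, the moderation option and the block cannot alter a fitted change, and the choice of probe set alters that of Ank1 alone. The median change was -2.15 after quantile normalization, -1.86 after median centring and -2.36 after cyclic loess. There limma's unadjusted p was under 0.05 for 2, 1 and 4 of the 8 genes. Median centring moved the median of all genes from -0.11 to 0.04. With 1 array left out it ran from -2.96 without AML 3 to -1.02 without AML 1, and the lowest adjusted p of any of the 8 genes in any alternative was 0.114. With a replicate block the changes were the same as fitted and limma's unadjusted p was under 0.05 for 6 of 8 genes and its adjusted p for 0 (lowest 0.169). The block left 0 of all genes past the threshold, against 423 without it. Deviations from the group means had correlations of 0.24, -0.30 and -0.25 between same-numbered arrays over all genes. With 3 arrays a group these deviations sum to 0, so the correlations cannot decide whether the numbers pair the samples. The count over all genes was 93 after quantile normalization, 896 after median centring, 64 after cyclic loess, 13 with a floor at 16, 639 with array weights, 279 without AML 3 and 0 without CML 3, AML 1 or AML 2. The difference between factors and membrane genes, computed after the data were seen, was 1.08 as reported, 1.03 to 1.13 under the 6 other scalings, floors and probe set choices, and 0.66 to 1.39 with 1 array left out, without overlap of the groups in any of them. Median centring cannot move this difference, since it shifts both sets alike on an array. The 3 arrays a group and the lack of a detection call for dim probe sets limit these values.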

Other observations

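Hbb-bh1, an embryonic globin gene of the beta cluster, did not follow the difference of the 8 genes between the leukemias. Within each leukemia it kept the order of arrays seen for the membrane genes. It stood at 2.31, 3.15 and 2.72 on CML 1, 2 and 3 and at 2.45, 4.25 and 6.92 on AML 1, 2 and 3, so that it was high on AML 3 and dim on the CML arrays, CML 2 included, where the red cell membrane genes were highest. The change was 1.81 ± 1.03 (SE; limma adjusted p = 0.329). Hbb-bh2, which met the same rule for naming, stood at -0.41 (limma adjusted p = 0.285), and the other 2 measured globin genes, Hba-x and Hbb-y, stayed at or below 5.35 on all arrays.

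Car1, a carbonic anhydrase known from early erythroid cells, also departed from the red cell genes in the difference between the leukemias. Car2, another member of that enzyme family, followed them. Car1 stood at 6.90, 9.02 and 8.45 in CML and at 6.71, 9.67 and 11.13 in AML, and Car2 at 10.09, 11.34 and 10.63 in CML and at 4.94, 8.77 and 10.59 in AML. Within each leukemia Car1 kept the order of arrays seen for the membrane genes, with AML 1 the lowest array. AML 3 was the highest array for Car1 and CML 2 for Car2. The megakaryocyte genes Pf4 and Ppbp were likewise highest on AML 3, at 10.16 and 9.91, against at most 6.74 and 6.43 on the CML arrays. Neither Car1 nor Pf4 passed (limma adjusted p = 0.573 and 0.331), and Car1, Car2 and Pf4 were picked after their values were seen.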
